A study of Mus musculus with 18 samples.

Results

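The comparison described here set mouse dendritic cells that had migrated in a 2.6 mg/ml collagen gel against the same kind of cells held without collagen. Its members were the 3 libraries titled 2.6 mg/ml collagen and the 6 suspension control libraries, 9 of the 18 RNA sequencing libraries of the series, with the biological replicate number kept as a block. The other 9 libraries came from gels of 1.7, 3.5 and 4.4 mg/ml collagen, 3 at each density. The study followed dendritic cells that crawl through confining tissue, and this comparison asks which transcripts differ between cells inside a gel and cells without one.

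All groups shared the same cells. Dendritic cells were grown with GM-CSF from bone marrow of wild-type C57Bl6/J mice aged 8 to 12 weeks, and were matured from day 8 of culture with 200 ng/ml lipopolysaccharide for 24 h. They were then placed in migration chambers, in bovine collagen for the gel groups and without collagen for the controls, and RNA was taken 5 h after CCL19 was introduced. The gels were lifted from the chamber and lysed whole, so a gel library held the RNA of every cell in the gel. How suspension cells were collected is not given in the sources used here, so effects of the gel and of its handling cannot be told apart. Of the suspension libraries 3 were titled plus CCL19 and 3 were titled without it, but the library names carried by the same samples give CCL19 the other way round. No direction for CCL19 was therefore drawn, and the 6 suspension libraries were pooled. All gel libraries had CCL19. The labels number the samples as biological replicates and do not say how many mice stood behind a number, so the p-values measure the spread between these samples.

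Dendritic cells carry antigen from tissue to lymph nodes. After maturation they display the receptor CCR7, which reads gradients of CCL19, and they move by actin flow and cell contraction through the pores of the tissue rather than by firm adhesion. Cells under stress can raise heat shock chaperones, which refold proteins, and NRF2 target genes, which make glutathione and detoxify oxidants, while NF-kB drives many cytokine and chemokine genes.

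Total counts ran from 13178096 to 28059839 over the 9 libraries, so that 3 counts stood for 0.107 to 0.228 CPM (counts scaled to a common library size). The deepest library, replicate 3 of the 2.6 mg/ml gel, stood apart. It detected 22294 genes against 15845 to 20922 in the other libraries of the series, and the SD over genes of its log2 difference from the suspension libraries of the same number was 1.26, against 0.788 and 0.852 in replicates 1 and 2. That difference had a Spearman correlation with the GC content of the exons of −0.464 over 13834 genes, against −0.04 and −0.056 in replicates 1 and 2. With exon length the correlations were −0.301, 0.017 and 0.25 in replicates 1, 2 and 3, so replicate 1 had a length trend of its own. These correlations are across genes, which are not independent, and their part in the results was not tested. Many counts of genes are therefore also given without this library. Xist was above 1 CPM in all 12 libraries numbered 1 or 2 and in none of the 6 numbered 3, while 4 Y-linked genes were above 1 CPM in all 6 libraries numbered 3 and in none of the others. The sex of the source cells thus followed the replicate number, which every group shares and the block takes up, although the study's methods name male mice.

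Of 13844 genes tested, 2990 passed a false discovery rate (FDR) of 0.1 between the 2.6 mg/ml gel and suspension (21.6%). They comprised 1658 genes that were higher in the gel (12%) and 1332 that were lower (9.62%). Among them 943 were over 2-fold higher and 703 over 2-fold lower, and 2745 had the same sign in all 3 replicate numbers. Without replicate 3 of the gel, 1047 genes passed of 14185 tested (7.38%), 572 higher (4.03%) and 475 lower (3.35%), of which 957 were called in the same direction with all libraries. A smaller set of 756 genes passed with all libraries and in each of the 9 fits that left out 1 library (5.46%), 436 higher (3.15%) and 320 lower (2.31%). Exon GC content had a median of 46.5% in the higher and 53.8% in the lower genes, against 50.3% in all genes tested. With GC content and length as offsets in the fit, 3475 genes passed, and 1424 of the higher and 1154 of the lower genes passed again with the same sign.

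The largest rises among genes with a mean of at least 5 CPM were led by chaperones and inflammatory genes. Hspa1b, an inducible Hsp70 chaperone on chromosome 17 (GRCm38, 34956436 to 34959238, minus strand), stood at 59.2, 62 and 75.4 CPM in gel replicates 1, 2 and 3, and at 1.07 to 8.73 CPM in suspension with a median of 3.37. The groups were far apart, and Hspa1b was 25.5-fold higher in the gel (log2 4.67 ± 0.42 SE, edgeR quasi-likelihood FDR 2.26e-05). Its neighbour Hspa1a (34969190 to 34972156), a near-identical copy, gave 20.2, 15.5 and 20.5 CPM against 1.00 to 4.21, a log2 difference of 3.06 ± 0.33. How reads shared by these copies were counted was not given in the sources used here, so the split between Hspa1a and Hspa1b is uncertain. Hspa4l, an Hsp110 family member that helps Hsp70 exchange nucleotide, was at 298, 287 and 459 CPM against 16.1 to 50.7, a 12.3-fold difference (log2 3.62 ± 0.35, FDR 2.84e-05). These 3 genes passed in every fit without 1 library, and Hspa1b kept a log2 difference of 3.95 without replicate 3 of the gel.

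Ptgs2, the inducible cyclooxygenase that starts prostaglandin synthesis, stood at 481, 168 and 363 CPM in the gel and at 4.93 to 139 CPM in suspension with a median of 27.6. The lowest gel library lay above the highest suspension library, and the fitted difference was 14.7-fold (log2 3.88 ± 0.54, FDR 0.000596). It was log2 2.61 without replicate 3 of the gel and 4.48 without replicate 1. Slco4a1, an organic anion transporter, stood at 516, 264 and 177 CPM against 8.29 to 91.0 (log2 3.35 ± 0.34). Tlcd2 was at 26.8, 18.8 and 15.3 CPM against 0.572 to 2.56 (log2 3.79 ± 0.37). Chka, the choline kinase of phosphatidylcholine synthesis, showed a smaller but tight difference, with 108, 169 and 141 CPM against 40.2 to 59.1 (log2 1.56 ± 0.17, FDR 8.72e-05). The other genes among the 12 largest rises were Gfi1, a transcriptional repressor, Kcnj2, an inward rectifier potassium channel, Inhba, which encodes an activin subunit, Slc5a3, the myo-inositol carrier, the chemokine Cxcl2 and the Wnt receptor Fzd5, with log2 differences of 3.19, 3.18, 3.14, 3.05, 2.83 and 2.71. Without replicate 3 of the gel, the log2 differences of Inhba, Slc5a3 and Cxcl2 were 2.09, 1.57 and 1.63, still past the threshold.

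**Figure D1:**
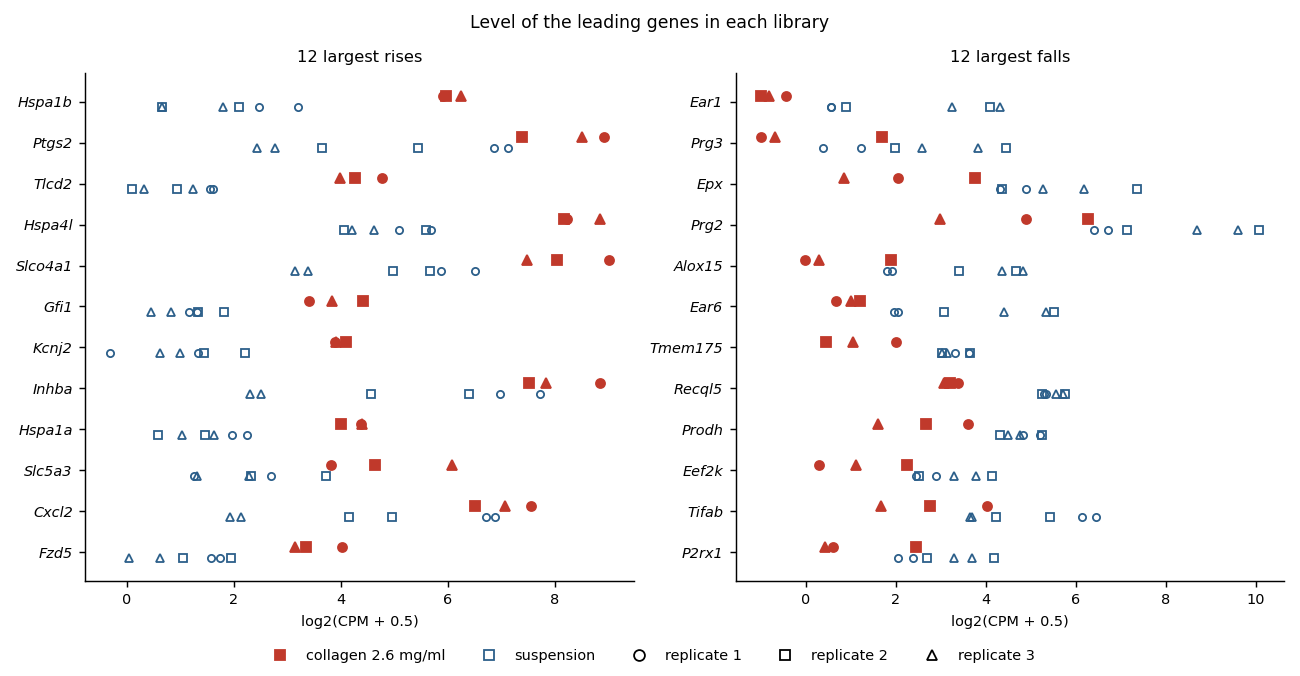
Level of the 12 largest rises (left) and 12 largest falls (right) on a log2(CPM + 0.5) axis, with filled red symbols for the 3 gel libraries at 2.6 mg/ml and open blue symbols for the 6 suspension libraries, and a marker shape for each replicate number. Hspa1b sits at 59.2 to 75.4 CPM in the gel and at or under 8.73 CPM in suspension, while Inhba, Cxcl2, Prg3, Alox15, Tifab and P2rx1 have gel and suspension libraries that overlap.

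Of the heat shock list of 19 mostly cytosolic chaperones, cochaperones and regulators, 11 were called higher and 0 lower (57.9%, against 12% of all genes), with a median log2 difference of 0.62 against 0.01 over all genes tested. Without replicate 3 of the gel 7 of the 19 were called higher, and 6 passed in every fit without 1 library. For this and all list counts below, the shares of all genes were 12% higher and 9.62% lower with all libraries. Without replicate 3 of the gel they were 4.03% and 3.35%. Besides the Hsp70 and Hsp110 genes above, Dnajb4, an Hsp40 cochaperone, stood at 29.1, 33.1 and 58.2 CPM against 8.87 to 22.2 (log2 1.57 ± 0.25, FDR 0.00113). The members not called included Hsf1, the heat shock transcription factor, at log2 0.05 (FDR 0.9), and the mitochondrial chaperonin pair Hspd1 and Hspe1 at 0.28 (FDR 0.46) and 0.12 (FDR 0.77). Bag3, a cochaperone of selective autophagy, was at 0.44 (FDR 0.21).

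NRF2 targets gave 10 of 23 members higher and 0 lower (43.5%), with a median log2 difference of 0.53 (7 without replicate 3 of the gel). Both subunits of the enzyme that limits glutathione synthesis were among them. Gclc, the catalytic subunit, was at 120, 64.9 and 65.2 CPM against 10.9 to 64.2, with a suspension median of 18.3 (log2 1.84 ± 0.28, FDR 0.000893). Gclm, the modifier subunit, was at 193, 143 and 129 CPM against 41.6 to 97.1 (log2 1.40 ± 0.23). Slc7a11, which imports cystine for glutathione, reached 324, 315 and 362 CPM against 57.8 to 249 (log2 1.52 ± 0.26). Txnrd1, a thioredoxin reductase, was at 490, 281 and 473 CPM against 76.7 to 328, with overlapping groups (log2 1.59 ± 0.27, and 0.97 without replicate 3 of the gel). Hmox1, which degrades heme and was chosen after its values were seen, varied most with the replicate number. It stood at 4521, 720 and 345 CPM in gel replicates 1, 2 and 3 against a suspension range of 37.6 to 2083, and was higher within each number by log2 1.34, 2.7 and 3.04. The members of the pentose phosphate pathway, which supplies NADPH, were not called, with G6pdx at log2 0.04 (FDR 0.93) and Taldo1 at 0.07 (FDR 0.88).

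The stress lists of the endoplasmic reticulum and of amino acid supply moved less as groups. In the integrated stress response list 6 of 28 members were higher and 2 lower (6 and 0 without replicate 3 of the gel), with a median of −0.05. Atf4, its transcription factor, was at 885, 535 and 504 CPM against 109 to 410 (log2 1.62 ± 0.23, FDR 0.000612). Slc38a2, an amino acid transporter, was at 153, 207 and 342 CPM against 33.1 to 96.3 (log2 2.32 ± 0.38, and 1.51 without replicate 3 of the gel), and Nupr1, a stress-induced chromatin factor, had a log2 difference of 1.87. The amino acid synthesis genes of the same list were not called, with Asns at −0.69 (FDR 0.14), Psat1 at −0.14 (FDR 0.83) and Trib3, a pseudokinase target, at −0.06 (FDR 0.96). Of 23 endoplasmic reticulum chaperone and unfolded protein response genes 5 were higher and 0 lower, with 8 when suspension replicate 2 titled without CCL19 was removed, 2 when gel replicate 2 or suspension replicate 3 titled plus CCL19 was, and 3 without gel replicate 3 or suspension replicate 3 titled without CCL19. Hspa5, the Hsp70 of this compartment, was at 785, 600 and 721 CPM against 304 to 487 (log2 0.91 ± 0.19). Xbp1, a transcription factor of the unfolded protein response, was not called (log2 0.15, FDR 0.7).

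Among ligands, 8 of 22 chemokines were higher and 0 lower (36.4%, 5 without replicate 3 of the gel). Those that rose were neutrophil-attracting CXC chemokines, platelet-type chemokines and inflammatory CC chemokines. Cxcl2 stood at 187, 90.1 and 134 CPM against 3.30 to 117 with a median of 23.9, and Cxcl1 at 37.8, 17.9 and 18.2 CPM against 1.45 to 18.7 with a median of 5.72. In both genes suspension libraries of replicate 1 reached into the gel range, and the fitted differences were log2 2.83 ± 0.54 for Cxcl2 and 2.07 ± 0.37 for Cxcl1. Without gel replicate 1 Cxcl2 was at 3.44, and without gel replicate 3 at 1.63. Ccl3, which attracts monocytes and lymphocytes, was at 113, 51.0 and 62.7 CPM against 13.9 to 44.2 (log2 1.42 ± 0.30, FDR 0.00652). Ppbp, a platelet chemokine precursor, had a log2 difference of 1.77. The chemokines of mature dendritic cells were not called, with Ccl22 at log2 0.02 (FDR 0.97), Ccl17 at −0.27 (FDR 0.63) and Ccl5 at 0.09 (FDR 0.89).

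Cytokines gave 7 of 27 members higher and 0 lower (25.9%, 5 of 28 without replicate 3 of the gel and 11 without its replicate 1), with a median of 0.26. The leading ones belonged to the IL-1 family. Il1b was at 2319, 1082 and 1162 CPM against 127 to 805 with a suspension median of 325, a 4.19-fold difference (log2 2.07 ± 0.29, FDR 0.000587). Il1f9, which encodes IL-36 gamma, stood at 46.1, 64.3 and 56.9 CPM against 13.4 to 27.7 (log2 1.63 ± 0.20, FDR 0.000241), and Il1a had a log2 difference of 1.88 ± 0.38. Il15, a survival cytokine of lymphocytes, was at 40.9, 32.3 and 49.8 CPM against 9.23 to 20.9 (log2 1.31 ± 0.26). Tnf was not called (log2 0.26, FDR 0.7), nor were Il12b (0.26, FDR 0.69) and Il10 (0.00 at under 1 CPM). Nlrc4, an inflammasome sensor, was at 14.5, 11.5 and 11.1 CPM against 0.985 to 5.79 (log2 2.01 ± 0.38), in a list where 4 of 15 inflammasome and pyroptosis genes were higher and 2 without replicate 3 of the gel or without suspension replicate 3 titled without CCL19.

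Receptors for microbial products also differed. Of 23 Toll-like and C-type lectin receptors and adaptors 9 were higher (39.1%) and 2 lower (8.7%), with a median of 0.57, and 6 and 2 without replicate 3 of the gel. Tlr2, the receptor of bacterial lipoproteins, was at 460, 256 and 165 CPM against 42.8 to 135 (log2 1.77 ± 0.25, FDR 0.000612). Clec4e, a lectin that binds glycolipids, was at 479, 233 and 202 CPM against 25.2 to 209 (log2 1.99 ± 0.31), and Tlr7, an endosomal sensor of single-stranded RNA, was at 30.2, 38.2 and 38.6 CPM against 3.71 to 24.7 (log2 1.78 ± 0.37). Tlr9, the endosomal sensor of unmethylated DNA, went the other way, with 7.20, 15.0 and 13.9 CPM against 19.2 to 74.7, and fell by 1.60 on the log2 scale. Among chemokine receptors 2 of 15 were higher and 3 lower, and 0 and 1 without gel replicate 2 or without gel replicate 3. Ccr7 itself was at 3996, 4167 and 3132 CPM in the gel and 2342 to 6425 in suspension with a median of 3874 (log2 0.01 ± 0.26, FDR 0.981). Cxcr4, the CXCL12 receptor, was at 154, 95.6 and 93.8 CPM against 14.8 to 164 (log2 0.91 ± 0.32, FDR 0.0646), and lost its call without gel replicate 2 or 3, suspension replicate 2 titled plus CCL19 or suspension replicate 3 titled without it.

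The eicosanoid list held both directions, with 3 of 16 genes higher and 4 lower. Pla2g4a, the phospholipase that frees arachidonic acid, rose beside Ptgs2, with 39.9, 35.2 and 57.5 CPM against 11.2 to 21.0 (log2 1.54 ± 0.31). Ptger2, a prostaglandin E2 receptor, was at 37.1, 17.9 and 12.5 CPM against 2.26 to 11.7 (log2 2.01 ± 0.34). The terminal synthase Ptges was not called (log2 0.92, FDR 0.25). Alox15, a 15-lipoxygenase and also a marker of eosinophils, was among the falls (log2 −3.42, and −2.83 without replicate 3 of the gel). Only 1 of the 4 lower genes was called without replicate 3 of the gel.

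Immediate early genes gave 9 of 30 members higher and 1 lower (3 and 2 without replicate 3 of the gel, 15 and 1 with GC and length offsets). Egr2, a zinc finger factor, was at 15.6, 25.7 and 25.4 CPM against 3.65 to 8.98 (log2 1.91 ± 0.29), and Ier3, an early response gene, was at 941, 489 and 386 CPM against 60.7 to 419 (log2 1.95 ± 0.35). Klf4 was higher by 2.33 (1.16 without replicate 3 of the gel) and its relative Klf2 fell by 1.81 on the log2 scale. Fos and Egr1 were not called (0.62, FDR 0.42, and 0.82, FDR 0.26). Of 19 NF-kB subunits and feedback genes 5 were higher and 1 lower with all libraries. The higher calls were 0 without replicate 3 of the gel, and 3 without its replicate 2 or any suspension library but replicate 2 titled without CCL19. Nfkbiz, an atypical IkB protein, led them at 35.5, 27.6 and 50.2 CPM against 5.28 to 22.5 (log2 1.63 ± 0.36, and 0.87 without that library, past the threshold no longer).

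The promoter table of RefSeq (GRCm38.p6, 250 bases before to 50 after the start site) was searched on both strands for fixed letters. Windows were sought for the named members called higher in the heat shock, NRF2 target, chemokine and cytokine lists. Only windows that held a match are shown, so they were chosen for the match. Other named members of these lists that rose have no window here. Capitals mark the match, which is an NF-kB site in the first 4 windows (GGG, any 2 bases, TT, any base, CC, read on either strand) and an antioxidant element in the last (TGAC, any 3 bases, GCA, read on the reverse strand).
Cxcl1, chr5:90891146-90891175, plus strand: ccggttgcagGGAAACACCCtgtactccgg
Cxcl1, chr5:90891164-90891193, plus strand: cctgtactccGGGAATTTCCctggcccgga
Cxcl2, chr5:90903792-90903821, plus strand: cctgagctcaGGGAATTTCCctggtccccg
Cxcl2, chr5:90903811-90903840, plus strand: cctggtccccGGGCTTTTCCagacatcgtg
Txnrd1, chr10:82859103-82859132, plus strand: actggattttTGCTTTGTCAttctgacacg

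The matches begin 89 and 71 bases before the start site of Cxcl1, 97 and 78 before that of Cxcl2 and 93 before that of Txnrd1. Cxcl1 and Cxcl2 lie side by side on chromosome 5 and share the letters GGGAATTTCC. Of the whole chemokine list, 6 of the 14 members with a promoter in the table held the NF-kB site given above (42.9%). Of the chemokines called higher, 3 of 6 held it, so the site was common in the list whether or not a member was called. Of the cytokine promoters 4 of 19 held it, and 1 of the 5 called higher. Of the promoters of 10001 genes tested 6.62% hold it, with 7.10% among the genes called higher and 6.26% among those called lower. The heat shock element (GAA, any 2 bases, TTC, any 2 bases, GAA) was found in 4 of 15 promoters of the heat shock list, in 1 of its 8 called higher, and in 0.53% of all genes tested. The antioxidant element was found in 2 of 19 NRF2 target promoters, in 1 of the 7 called higher, and in 3.31% of all. The cyclic AMP element TGACGTCA stood in 4.55% of the promoters of higher and 2.80% of lower genes, against 3.54% of all. The AP-1 letters TGACTCA, which can overlap the antioxidant element, stood in 4.61% of all. A match is a description of letters and not of binding.

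**Figure D2:**
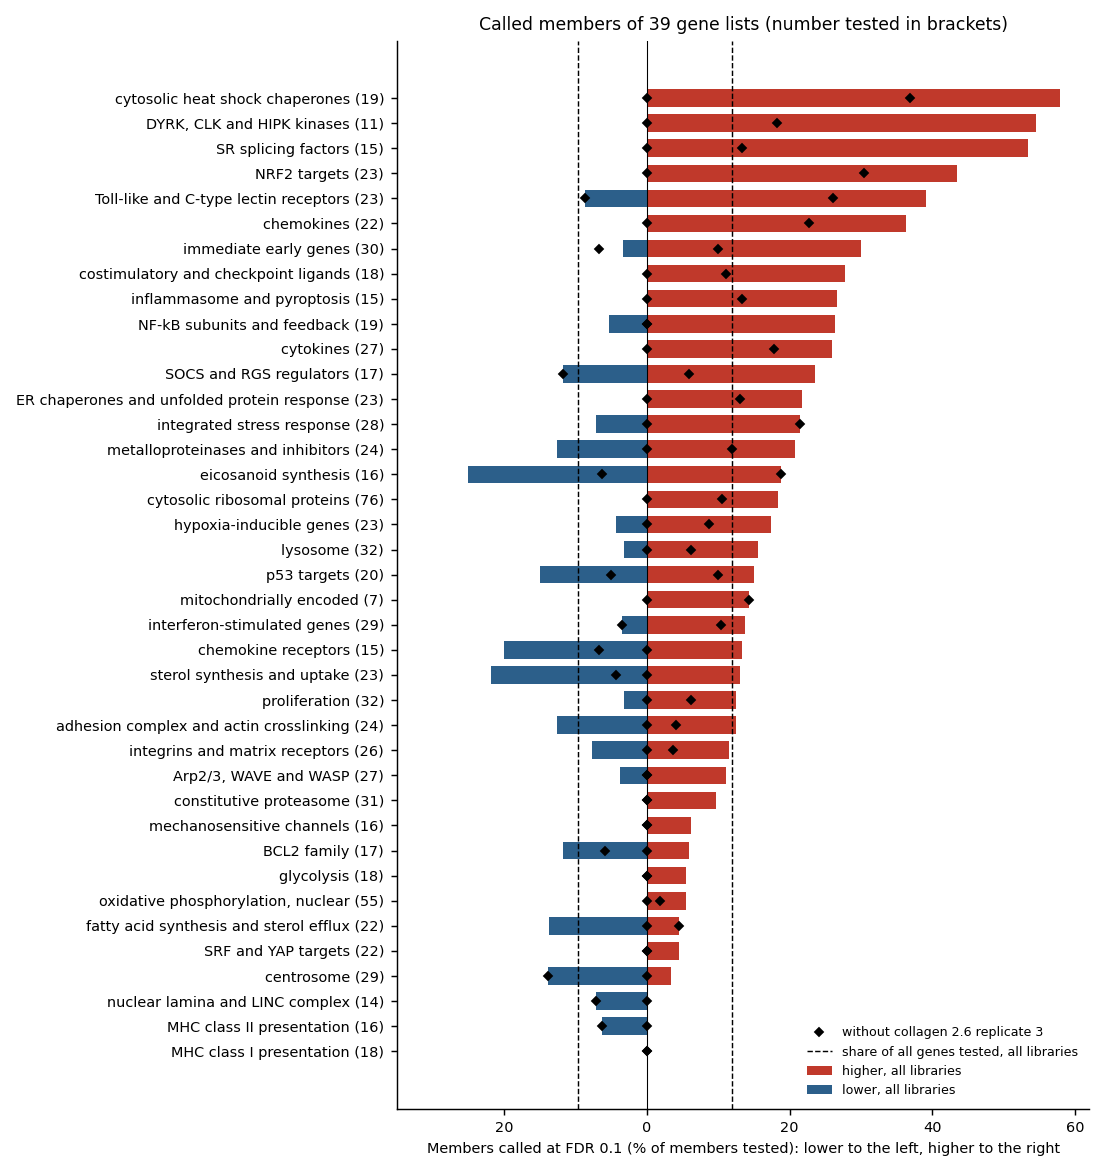
Share of the members of 39 gene lists called at FDR 0.1, higher to the right in red and lower to the left in blue, with black diamonds for the shares without replicate 3 of the gel. Dashed lines mark the shares of all genes tested with all libraries (12% higher, 9.62% lower) and apply to the bars only. For the diamonds the shares of all genes were 4.03% higher and 3.35% lower, which are not drawn. Heat shock chaperones (57.9%), DYRK, CLK and HIPK kinases (54.5%) and SR splicing factors (53.3%) have the longest red bars, and the diamonds of the last pair lie far to the left of their bars.

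Lists tied to the movement of the cells gave few calls, where all genes gave 12% higher and 9.62% lower. Of 26 integrins and matrix receptors 3 were higher and 2 lower, of 24 adhesion complex and actin crosslinking genes 3 and 3, and of 27 Arp2/3, WAVE and WASP genes 3 and 1. Without replicate 3 of the gel the higher and lower calls were 1 and 0, 1 and 0, and 0 and 0. Small counts were unsteady in general, since 31 of the 36 counts of 2 to 5 over all lists moved by over 1.5 times when 1 of the 9 libraries was left out. Itgb8, an integrin subunit that activates TGF-beta, was at 8.22, 13.7 and 31.3 CPM against 2.29 to 14.2 (log2 1.89 ± 0.45), and Msr1, a scavenger receptor, was at 232, 70.9 and 61.8 CPM against 13.2 to 82.4 (log2 1.36 ± 0.34). Itgb7 was at 27.7, 26.5 and 13.9 CPM against 32.0 to 63.5 and fell by 1.26 on the log2 scale. Fermt3, which activates integrins in blood cells, was at 287, 303 and 167 CPM against 313 to 574 (log2 −0.79 ± 0.22). Of these 4 genes, Itgb8, Itgb7 and Fermt3 lost their call without replicate 3 of the gel, at log2 1.08, −1.05 and −0.60. Of 14 nuclear lamina and LINC complex genes 1 was called, Lmnb2, which encodes lamin B2, at 4.80, 5.50 and 5.27 CPM against 14.1 to 19.9 (log2 −1.62 ± 0.34, FDR 0.00522). Of 22 SRF and YAP targets and 16 mechanosensitive channels 1 each was higher, both lost without replicate 3 of the gel.

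Dyrk3, a kinase that dissolves condensates and that the study follows, was detected in every library. It stood at 6.42, 6.80 and 5.17 CPM in the gel against 1.10 to 3.79 in suspension with a median of 1.92. The groups did not overlap, as for 4.36% of all genes in this direction, and the difference was log2 1.63 ± 0.31 (3.10-fold, FDR 0.00341). Within replicate numbers 1, 2 and 3 it was 1.70, 1.55 and 1.62, and it passed in each of the 9 fits without 1 library. Of the 11 DYRK, CLK and HIPK kinases tested 6 were higher and 0 lower (54.5%). Hipk1, which phosphorylates homeodomain proteins, was at 311, 266 and 275 CPM against 37.4 to 144 (log2 1.98 ± 0.27, FDR 0.000557). Clk4, which phosphorylates splicing factors, was at 15.1, 26 and 48.3 CPM against 6.22 to 21.5 (log2 1.40 ± 0.37), and Hipk3 was at 59.2, 98.3 and 183 CPM against 32.6 to 112 (log2 1.08 ± 0.30). Without replicate 3 of the gel 2 of the 6 were called, and Clk4 (0.68) and Hipk3 (0.65) were not.

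SR splicing factors gave 8 of 15 members higher and 0 lower (53.3%), and 2 without replicate 3 of the gel. Leaving out suspension replicate 2 titled plus CCL19 also left 2, suspension replicate 3 titled without CCL19 left 3, and gel replicate 2 or suspension replicate 3 titled plus CCL19 left 4. Srsf11 was at 116, 101 and 182 CPM against 34.4 to 79.0 (log2 1.24 ± 0.24), and Srsf6 was at 122, 147 and 177 CPM against 55.1 to 97.3 (log2 1.05 ± 0.21). Both passed in every fit without 1 library. Son, a nuclear speckle scaffold, was at 232, 362 and 460 CPM against 111 to 378 (log2 0.74 ± 0.25, FDR 0.0555), a call that was lost without gel replicate 2 or 3, suspension replicate 2 titled plus CCL19 or suspension replicate 3 titled without it. Ribosomal protein genes gave 14 of 76 higher and 0 lower (8 without gel replicate 2 or 3, 9 without suspension replicate 3 titled plus CCL19). Rpl27, at 7.08, 15.4 and 9.94 CPM against 2.01 to 6.87, led them (log2 1.46 ± 0.28). These genes have many pseudogene copies, and reads shared with them make the values uncertain.

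Most centrosome genes were not called. Of 29 members 4 were lower (13.8%, against 9.62% of all genes) and 1 higher, with a median of −0.13, and 4 and 0 without replicate 3 of the gel. Without its replicate 1 the calls were 5 lower and 4 higher, and without suspension replicate 2 titled without CCL19 4 lower and 3 higher. Crocc, which encodes the linker protein rootletin, was at 1.14, 0.578 and 1.32 CPM against 3.07 to 10.4 (log2 −2.30 ± 0.55, FDR 0.0111). Cep250, which encodes the centriole linker protein C-NAP1, was at 18.7, 48.2 and 62.7 CPM against 45.5 to 113 (log2 −0.95 ± 0.25), and Cep164, a distal appendage protein, was at 6.48, 7.16 and 5.05 CPM against 6.56 to 24.1 (log2 −1.23 ± 0.34). The groups overlapped for Cep250 and Cep164, and both differed in the same direction in every fit without 1 library. Other members were not called, among them Pcnt (log2 −0.26, FDR 0.6), Tubg1 (−0.48, FDR 0.24) and Nin (0.14, FDR 0.88).

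Antigen presentation genes gave few calls. Of 18 MHC class I genes 0 were called, and of 16 MHC class II genes 1 was, Rfx5, a factor that binds MHC class II promoters, at 6.24, 4.19 and 4.42 CPM against 9.73 to 17.2 (log2 −1.37 ± 0.32, FDR 0.0102). With GC and length offsets 2 class I genes were called higher and 4 class II genes lower. H2-Ab1 and Cd74 were at log2 −0.03 each (FDR 0.96 and 0.97). Costimulatory and checkpoint ligands gave 5 of 18 higher and 0 lower (27.8%, 2 without replicate 3 of the gel and 3 without its replicate 2). Tnfsf9, which encodes 4-1BB ligand, was at 27.2, 15.7 and 19.1 CPM against 2.38 to 13.9 (log2 1.74 ± 0.37), and Pdcd1lg2, which encodes PD-L2, was at 123, 124 and 186 CPM against 65.1 to 122 (log2 0.67 ± 0.18). Cd80 was at 394, 445 and 908 CPM against 213 to 437 and lost its call without replicate 3 of the gel (log2 0.93, and 0.66 without it). Cd86 and Cd40 were not called, at 0.17 (FDR 0.7) and −0.10 (FDR 0.87).

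Of the metabolic lists, glycolysis gave 1 of 18 higher, nuclear oxidative phosphorylation genes 3 of 55, proteasome subunits 3 of 31 and hypoxia-inducible genes 4 higher and 1 lower of 23. Of these, 0, 1, 0 and 2 higher genes were called without replicate 3 of the gel. Over all genes 12% were higher with all libraries and 4.03% without that library. With GC and length offsets the oxidative phosphorylation genes gave 0 higher and 3 lower and the proteasome 0. Kdm3a, a histone demethylase induced by low oxygen, was at 197, 77.6 and 67.8 CPM against 17.4 to 135 (log2 1.23 ± 0.25). Sterol genes gave 3 of 23 higher and 5 lower (0 and 1 without replicate 3 of the gel). Of 7 mitochondrially encoded genes 1 was higher, mt-Co1, a cytochrome oxidase subunit, at 5065, 5147 and 3504 CPM against 802 to 3811 (log2 1.32 ± 0.31). Lysosome genes gave 5 of 32 higher and 1 lower, led by Atp6v1b2, a proton pump subunit, at 617, 632 and 649 CPM against 333 to 389 (log2 0.80 ± 0.18), and 2 and 0 without replicate 3 of the gel.

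Secreted proteases and inhibitors gave 5 of 24 higher and 3 lower, and 3 and 0 of 25 without replicate 3 of the gel. All genes gave 12% higher and 9.62% lower, and 4.03% and 3.35% without that library. Serpinb2, a plasminogen activator inhibitor, was at 74.3, 43.6 and 123 CPM against 10.9 to 28.3 (log2 2.25 ± 0.39, and 1.66 without replicate 3 of the gel). Timp3, an inhibitor of metalloproteinases, was at 3.60, 10.1 and 6.74 CPM against 0.696 to 2.96 (log2 1.95 ± 0.34). The membrane-bound collagenase Mmp14 was not called (log2 0.62, FDR 0.102). Interferon-stimulated genes gave 4 of 29 higher and 1 lower (3 and 1 without replicate 3 of the gel, 4 and 4 with GC and length offsets), with Mx1 at 127, 165 and 156 CPM against 40.5 to 123 (log2 1.10 ± 0.28). SOCS and RGS regulators gave 4 of 17 higher and 2 lower (1 and 2 without replicate 3 of the gel), with Rgs12 at 6.90, 16.6 and 18.4 CPM against 14.1 to 60.7 (log2 −1.33 ± 0.22, FDR 0.00134). Among p53 targets 3 of 20 were higher and 3 lower (2 and 1 without replicate 3 of the gel, 6 and 3 with GC and length offsets), and Mdm2, which degrades p53, was at 160, 151 and 271 CPM against 35.5 to 151 (log2 1.70 ± 0.33, and 1.00 without replicate 3 of the gel). BCL2 family genes gave 1 of 17 higher and 2 lower, fatty acid synthesis and sterol efflux genes 1 of 22 and 3, and proliferation genes 4 of 32 and 1. Without replicate 3 of the gel these were 0 and 1, 1 and 0, and 2 and 0. With all libraries, the shares called higher of interferon-stimulated genes (13.8%), p53 targets (15%) and proliferation genes (12.5%) were near that of all genes. Pcna, the replication clamp, was at 68.0, 37.6 and 64.9 CPM against 20.7 to 37.4 (log2 0.99 ± 0.18, FDR 0.00231). It does not stand for the proliferation list, which had a median log2 difference of −0.24, with 27 of its 32 members not called.

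**Figure D3:**
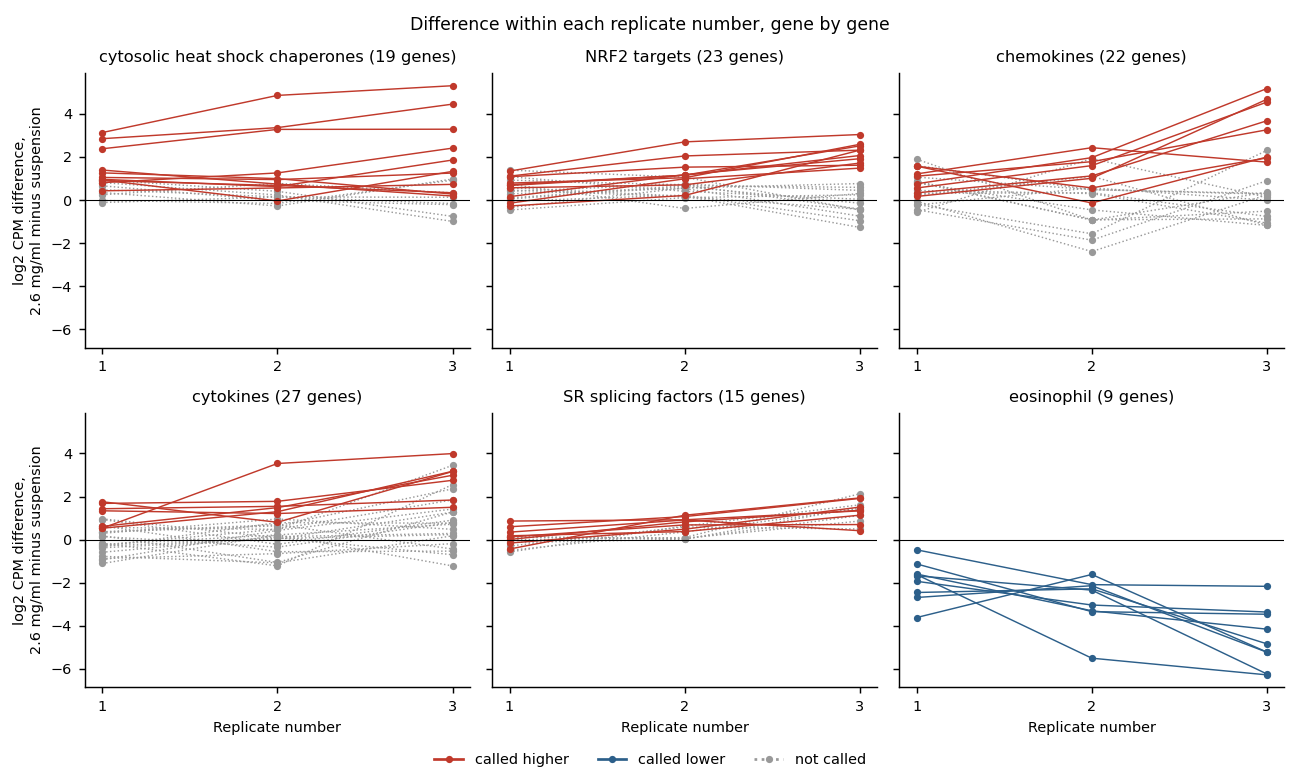
Difference in log2 CPM between the gel at 2.6 mg/ml and the suspension libraries of the same replicate number, for each tested gene of 6 lists, in red where called higher, blue where called lower and grey dotted where not called. A line joins the 3 values of 1 gene and has no order in time. Hspa1b lies at 3.13, 4.86 and 5.31, the eosinophil markers lie under 0 in each number, and chemokine values spread most in replicate 3.

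The largest falls were led by genes of eosinophils, granulocytes that bone marrow cultures can also yield. All 9 tested eosinophil markers were lower in the gel, with a median of −3.42, and 8 were without replicate 3 of the gel. Over all genes 9.62% were lower. Of the 11 listed markers, Ear10 and Il5ra were not tested. Ear1 and Prg3 (0, 2.75 and 0.125 CPM) were too low in the gel to pass the low-count filter through the gel libraries. The count of 9 is thus partly set by that filter and is not comparable with the share of all genes. Epx, eosinophil peroxidase, was at 3.60, 12.9 and 1.29 CPM against 19.4 to 163 with a median of 33.4 (log2 −3.46 ± 0.65, FDR 0.0029). Prg2, the major basic protein of their granules, was at 29.1, 76.4 and 7.40 CPM against 83.7 to 1078 (log2 −3.43 ± 0.75, and −2.71 without replicate 3 of the gel). Ear6, an eosinophil ribonuclease, was at 1.08, 1.81 and 1.5 CPM against 3.36 to 45.0. Ear1 was at 0.240, 0 and 0.0627 CPM, at or near 3 counts, against 0.966 to 19.5, and no fold is given for it. Reads may be shared between the Ear genes, so their split is uncertain. The CPM of the 9 markers summed to 39.6, 100.0 and 14.8 in the gel and to 121 to 1385 in suspension, and at the other densities to 26.2 to 171. In bulk RNA fewer cells of a type and less RNA per cell cannot be told apart.

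Other cell type markers were compared as well. Of 15 dendritic cell markers 1 was called, Flt3 (log2 −1.47, FDR 0.0047), and their summed level was 50970 to 77310 CPM in the gel and 33670 to 106600 in suspension, with Ccl22, Cd74, H2-Aa and Fscn1 high in every group. The macrophage list gave 1 of 13 higher (2 without replicate 3 of the gel, 0 without its replicate 2 and 4 with GC and length offsets), with sums of 2001 to 4198 CPM in the gel and 1060 to 3947 in suspension. Neutrophil markers gave 3 of 14 lower and 0 without replicate 3 of the gel, with sums of 3159 to 8510 against 1754 to 19230. Mast cell and basophil markers gave 1 higher and 1 lower of 9, plasmacytoid dendritic cell markers 1 of 3 higher (0 without replicate 3 of the gel), and B and plasma cell markers 0 of 7. The single tested gene each for T and NK cells and for the erythroid lineage was not called. Stromal markers summed to 19.6, 158 and 18.6 CPM in gel replicates 1, 2 and 3 and to 8.35 to 20.5 in suspension. Their 2 calls of 7 were both lost without gel replicate 2, and 4 of the 7 were called without gel replicate 3. The part of these other cells in the differences above was not tested.

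**Figure D4:**
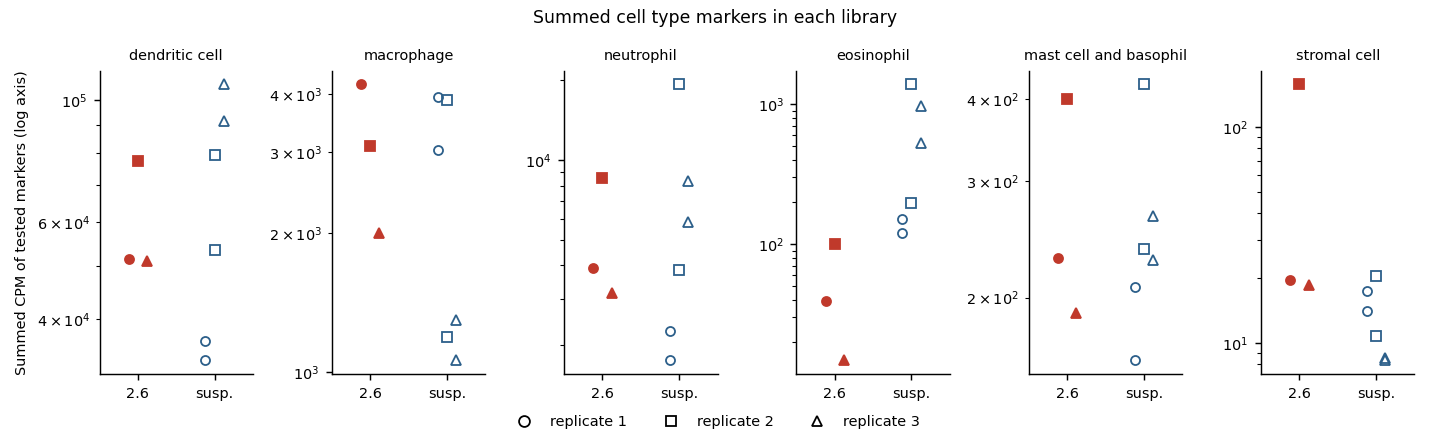
Summed CPM of the tested markers of 6 cell types on log axes, with filled red symbols for the 3 gel libraries at 2.6 mg/ml, open blue symbols for the 6 suspension libraries and a marker shape for each replicate number. Eosinophil sums in the gel (14.8 to 100.0) all lie under those in suspension (121 to 1385), dendritic cell sums overlap, and the stromal sum of gel replicate 2 (158) stands alone.

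Among the 12 largest falls, of those that were not eosinophil markers, Recql5, a DNA helicase on chromosome 11 (115892595 to 115933477, minus strand), had the smallest standard error. It was at 9.96, 8.68 and 7.84 CPM in the gel and 37.3 to 53.1 in suspension with a median of 43.4, and fell by 2.31 on the log2 scale (SE 0.28, FDR 0.000176). Prodh, the proline dehydrogenase that starts proline breakdown, was at 11.7, 5.86 and 2.54 CPM against 19.3 to 37.1 (log2 −2.26 ± 0.45). Tmem175, a lysosomal potassium channel, was at 3.48, 0.868 and 1.57 CPM against 7.59 to 12.0 (log2 −2.35 ± 0.43), and Eef2k, a kinase that slows translation elongation, was at 0.720, 4.27 and 1.66 CPM against 4.91 to 17 (log2 −2.25 ± 0.44). Their gel libraries lay under all 6 suspension libraries, as for 6.1% of all genes. Tifab and P2rx1, an ATP-gated channel, had log2 differences of −2.24 and −2.22, with overlapping groups.

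The 2.6 mg/ml gel was also set against the other 3 densities in the same fit. No gene passed FDR 0.1 against 1.7, 3.5 or 4.4 mg/ml (0% in each), with 1207, 580 and 2447 genes at an unadjusted p under 0.05. DESeq2 with the same block called 0, 0 and 1163 genes. These comparisons share the 3 libraries of 2.6 mg/ml with the comparison above. Hspa1b was at 35.5, 23.5 and 6.83 CPM at 1.7 mg/ml, 75.8, 18.3 and 6.55 at 3.5 and 124, 77.9 and 54.8 at 4.4, for replicates 1, 2 and 3, so replicate 3 was the lowest at each of these densities and the highest at 2.6. Ptgs2 ran from 44.3 CPM in replicate 3 at 3.5 mg/ml to 1836 CPM in replicate 1 at 4.4. Dyrk3 was at 5.47, 3.91 and 1.47 CPM at 1.7 mg/ml, 7.82, 6.81 and 3.80 at 3.5 and 12.9, 13.9 and 8.64 at 4.4. Its level at 2.6 differed from these by log2 0.88 (FDR 0.568), 0.06 (FDR 0.985) and −0.92 (FDR 0.216). Chka was at 264, 320 and 251 CPM at 4.4 mg/ml, and 2.6 minus 4.4 gave log2 −1.0 (FDR 0.106). The 2 suspension titles gave 0 calls against each other (0%), with 1960 genes at an unadjusted p under 0.05 and 194 called by DESeq2.

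**Figure D5:**
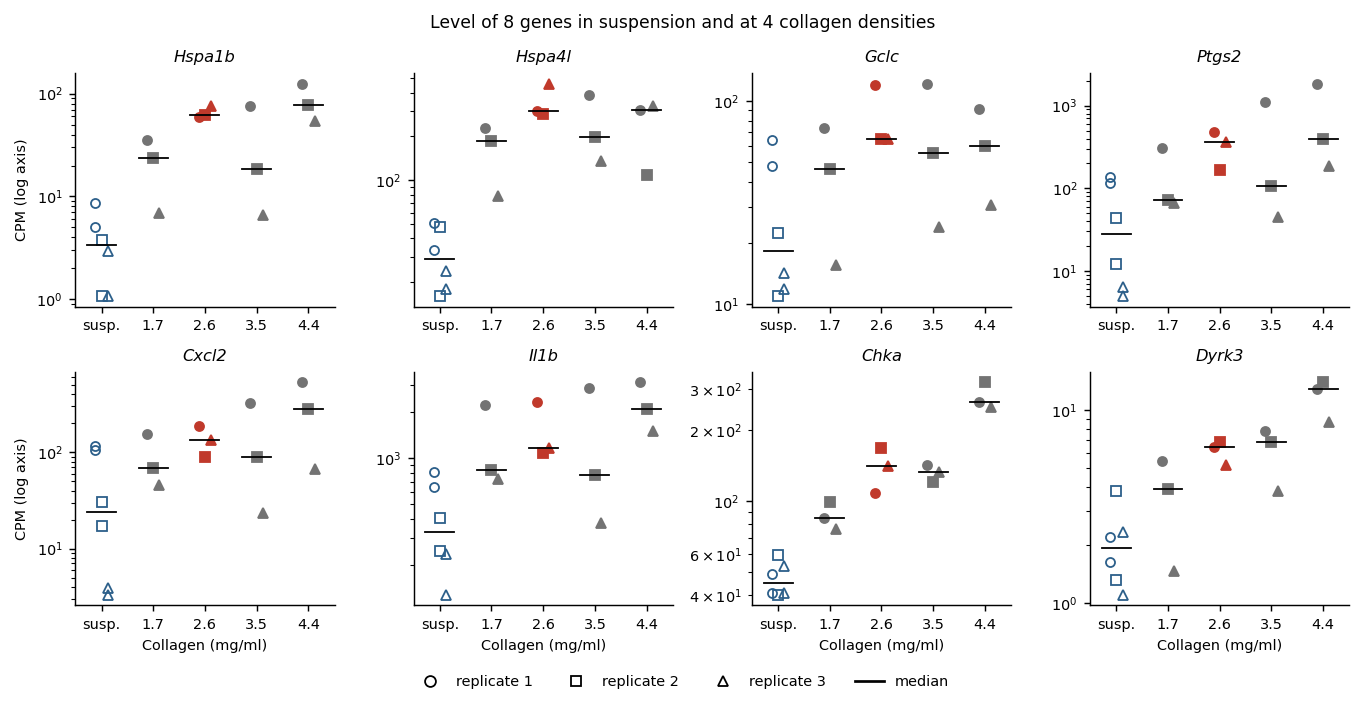
Level of 8 genes in CPM on log axes, in suspension (open blue) and at 4 collagen densities (2.6 mg/ml in filled red, the others in grey), with a marker shape for each replicate number and a bar at the median. Hspa4l, at 287 to 459 CPM, and Chka, at 108 to 169 CPM, lie above all suspension libraries at 2.6 mg/ml, and replicate 3 is the lowest of the 3 for most genes at 1.7 and 3.5 mg/ml.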

How the data were processed

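RNA was sequenced from 18 libraries with a poly(A)-selecting stranded kit and 50-base single reads. Per the labels and the study's methods, the authors aligned reads to GRCm38 with STAR 2.7.0f. The deposited values are whole-number read counts per gene. The methods name RSEM for TPM values. Whether the deposited counts come from it, and whether reads with several matches were kept, is not given in the sources used here. Counts were tested with edgeR 4.0.16 in R 4.3.3 (TMM, filterByExpr, quasi-likelihood F test, Benjamini-Hochberg FDR 0.1) over all 18 libraries, with 6 groups and the replicate number as a block. Levels are CPM, and log2 differences come from the fit. Same-numbered libraries share a date and a flow cell lane in their library names. Over the 9 pairs of 2.6 mg/ml and suspension libraries or suspension titles with the same number, deviations from the group means correlated at 0.0147 to 0.846 (mean 0.391), against −0.191 for other pairs. Deviations within a group sum to 0, so the value for other pairs follows from that for same-number pairs and is no separate check. No 2 libraries were identical.

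Named genes were the 12 largest rises and falls among called genes with a mean of at least 5 CPM, one direction in 3 of 3 replicates and an established symbol, up to 4 called members of each list by p and members not called, with Dyrk3 and Ccr7. The rule also named genes called between densities, of which there were 0. The members and lists were chosen with earlier results of these data known. Alternatives were DESeq2 1.42.0, other size factors, no filter, GC and length offsets (GENCODE annotation), no block and left-out libraries. On simulated counts for this comparison (13844 genes) the blocked fit recovered 29 of 100 genes changed by log2 1 and 99 of 100 changed by log2 2, with 11 false calls. The changed genes were drawn from well-counted genes only, and the same spread was used for all genes and libraries. No outlying library such as replicate 3 of the gel was simulated, so these counts do not give the error rate of the real comparison. Total counts limit the precision of low genes, and intervals of counting do not cover differences between cultures.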

Additional observations from a re-analysis of the deposited data

Results flagged for a closer look

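In 163 values of named genes, totals and marker sums over the 6 suspension libraries, 2 had 1 library far from the others, with a gap to the nearest over the whole range above the 95% critical value of Dixon for 6 samples. Chance alone gives about 1 in 20. Arhgef18 was highest in replicate 2 titled plus CCL19, with a ratio of 0.633. Cox7c, a cytochrome oxidase subunit counted at under 2 CPM in each suspension library, was highest in replicate 1 titled without CCL19, also with a ratio of 0.633.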

How the results depend on the processing

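The count of 2990 genes moved with the replicate block and with single libraries. With no replicate block 1090 genes passed (594 higher, 496 lower), all 1090 also called with the block. With only the 9 libraries compared 1640 passed, and with the suspension libraries titled without CCL19 alone 916. Without replicate 1, 2 or 3 in every group the count was 2672, 1821 or 665, and leaving out 1 library gave 1047 (gel replicate 3) to 3625 (gel replicate 1), with 1878 without gel replicate 2. DESeq2 (3665), DESeq2 size factors (3033), no filter (2977), GC and length offsets (3475) and the suspension libraries titled plus CCL19 alone (3569) stayed within 1.5 times. Against 4.4 mg/ml, 0 genes became 1163 with DESeq2, 29 with its size factors, 1078 with no filter, 118 with only the libraries compared, 416 with offsets and 0 to 432 without 1 replicate number. With no filter, 219 genes passed against 1.7 mg/ml, 56 against 3.5 mg/ml and 385 between suspension titles, where DESeq2 gave 194. Ccr7, not called (log2 0.01), changed sign with no replicate block (−0.0706), without 1 replicate number (−0.33 to 0.42, under 0 without 1 or 2), without gel replicate 1 (−0.18) or 2 (−0.09), without suspension replicate 1 titled plus (−0.13) or without CCL19 (−0.08), and with titled plus alone (−0.14). Over the 151 named genes and their alternatives, 2609 values kept their direction and side of the threshold, 553 kept only the direction, and 8 reversed, all of Ccr7. The cause was not tested.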
